A study of Mus musculus with 4 samples.

Results

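Circular RNAs (circRNAs, or circles) are RNAs closed by back-splicing, which joins the end of a downstream exon to the start of an upstream one. The circRNAs described here are those of 9 mouse genes that write histone methylation or act with Polycomb proteins. Ash1l, Kmt2a, Kmt2c, Nsd1 and Setd2 are writers of marks found at active genes, and Eed, Suz12, Yy1 and Cdyl are members or partners of the Polycomb system. All circRNAs with 1 or both ends on an exon boundary of these genes were taken, which gave 110 of the 23980 circRNAs in the table: 89 of the 5 writers and 21 of the 4 Polycomb genes. The genes were selected on comparisons of circRNA counts in these same libraries, in which circles of Ash1l and Kmt2a had stood apart between the frontal infarct core and sham. All differences between libraries given below are therefore descriptions.

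Trithorax-group proteins and their relatives methylate lysine 4 or lysine 36 of histone H3 and help keep genes active. Polycomb repressive complex 2 (PRC2), which contains Eed and Suz12, methylates lysine 27 of the same histone and keeps genes silent. CircRNAs are abundant in brain, where many come from genes of neurons, and a circle's level can differ from that of the linear mRNA of its gene. The values below are the counts deposited for circles and not levels of mRNAs or proteins. The program that counted them is not named in the sources used here, so it is not known whether a count holds reads across the back-splice junction alone.

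The series measured circRNAs in mouse brain tissue after permanent occlusion of the middle cerebral artery (MCAO), a stroke model in which a filament closes an artery of the brain. Tissue was taken 3 h after the occlusion, and the title of the series names circRNAs as possible markers of the penumbra, the tissue around an infarct core that is short of blood but may still be saved. There were 4 libraries, 1 per group: core tissue close to the frontal lobe (core frontal), core tissue close to the occipital lobe (core occipital), penumbra, and cortex of sham-operated mice taken to match the core and the penumbra. Each MCAO library pools RNA from 6 mice. The sources used here do not give the strain, sex or age of the mice or the number of sham mice.

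The deposited counts summed to 121393 (core frontal), 83090 (core occipital), 96349 (penumbra) and 106558 (sham), and levels are given as CPM, counts scaled to these sums. A floor of 3 counts was used for a circle with 0 counts, worth 24.7, 36.1, 31.1 and 28.2 CPM in the same order of libraries. The 95% Poisson intervals for 0 counts reach higher, to 30.4, 44.4, 38.3 and 34.6 CPM. With 1 library per group no value has a replicate error, and the 95% exact intervals of ratios cover counting error only. Reads amplified by PCR without molecular identifiers are not independent molecules, so the intervals are too narrow even for that. A circle was called different between 2 libraries at an adjusted p under 0.05 (Fisher's exact test, Benjamini-Hochberg over all circRNAs tested) and a CPM ratio of 2 or more either way. Such a call compares 2 libraries and not 2 conditions. Circles of 9 of 12 neuron marker genes were present in the table, with summed levels of 24944 CPM in core frontal, 27296 CPM in core occipital, 27120 CPM in penumbra and 25826 CPM in sham. Their ratios to sham were 0.966 (0.917 to 1.02), 1.06 (0.999 to 1.12) and 1.05 (0.995 to 1.11), all with intervals that include 1. Core frontal was at 0.914 (0.865 to 0.965) of core occipital, and penumbra at 1.09 (1.03 to 1.15) of core frontal. These 2 intervals leave out 1. Of the astrocyte markers, 2 of 6 genes had circles, at 115, 132, 135 and 65.7 CPM in core frontal, core occipital, penumbra and sham. These rest on 14, 11, 13 and 7 counts, and the ratios to sham of 1.76 (0.663 to 5.14), 2.02 (0.713 to 6.13) and 2.05 (0.762 to 6.08) all have intervals that include 1. Of the endothelial markers only Pecam1 had one, with 1 count in each MCAO library and 0 in sham, and the 6 oligodendrocyte, 6 microglia and 6 blood markers had none. The part of these marker levels in the results was not tested, and in bulk tissue fewer cells of a type and less RNA per cell cannot be told apart.

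The sequence that tells one circle from another is its back-splice junction. The circles on which the results turn are given here by the last 15 bases of their last exon, in lower case, and the first 15 bases of their first exon, in capitals. All are written 5′ to 3′ from GENCODE M21 transcripts on GRCm38. The first 3 share the acceptor at the start of Ash1l exon 2 and differ in the donor joined to it, and the next 2 share the donor at the end of Ash1l exon 5.
Ash1l exons 2 to 3, chr3:88965812-88985790, plus strand: tacagtcgttggcagGGAAAGAGATGCTGG
Ash1l exons 2 to 5, chr3:88965812-89007877, plus strand: agaaaacaataaaagGGAAAGAGATGCTGG
Ash1l exon 2, chr3:88965812-88966328, plus strand: tgcccttcaaaatggGGAAAGAGATGCTGG
Ash1l exons 4 to 5, chr3:89001773-89007877, plus strand: agaaaacaataaaagGTTCCCAGTCAGCTT
Ash1l exon 5, chr3:89007142-89007877, plus strand: agaaaacaataaaagTGAATGGAGTTCCTT
Kmt2a exons 19 to 20, chr9:44828784-44829271, minus strand: gatgacagtgctaatCAGTGGGATGTTACC
Kmt2a exons 19 to 20 without the first 3 bases, chr9:44828784-44829268, minus strand: gatgacagtgctaatTGGGATGTTACCAAA
Kmt2c exons 24 to 25, chr5:25347361-25349940, minus strand: ctagcagagatgatgAAGGAGAACTTATGG
Nsd1 exons 3 to 5, chr13:55233895-55248077, plus strand: agctccctgagccagTGTCAACCGAAGAAA
Nsd1 exon 5, chr13:55245518-55248077, plus strand: agctccctgagccagGTTCCTCAGAAGATT
Eed exons 9 to 11, chr7:89955531-89962361, minus strand: tcctcataaagccaaGCCATTTATTTCCCA
Cdyl exon 5, chr13:35815909-35816575, plus strand: ctgttaatggaaaagGTGGAAAGTATCGTT
Cdyl exons 4 to 5, chr13:35790101-35816575, plus strand: ctgttaatggaaaagCAAAATAATGTGGTT

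Shown whole are 2 short circles, because one was seen in sham alone and the other had most of its counts in penumbra. Exon 2 is in lower case and exon 3 in capitals, and the last base is joined back to the first.
Eed exons 2 to 3, chr7:89972231-89977049, minus strand, 246 bases: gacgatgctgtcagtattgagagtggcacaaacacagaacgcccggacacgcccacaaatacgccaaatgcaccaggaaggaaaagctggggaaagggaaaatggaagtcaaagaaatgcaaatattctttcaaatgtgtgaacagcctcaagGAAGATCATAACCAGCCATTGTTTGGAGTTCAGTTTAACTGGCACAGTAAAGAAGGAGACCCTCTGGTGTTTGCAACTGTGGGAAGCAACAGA
Yy1 exons 2 to 3, chr12:108806479-108812979, plus strand, 224 bases: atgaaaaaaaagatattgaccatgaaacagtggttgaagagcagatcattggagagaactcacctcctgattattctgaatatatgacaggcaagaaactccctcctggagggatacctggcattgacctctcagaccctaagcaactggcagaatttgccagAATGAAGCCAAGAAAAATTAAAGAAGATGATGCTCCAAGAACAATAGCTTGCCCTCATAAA

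Of the 110 circles 36 were detected in all 4 libraries, and 30 had 10 or more counts over the 4. Together the 110 took nearly the same part of every library. Their counts of 982 (core frontal), 671 (core occipital), 761 (penumbra) and 796 (sham) were 0.809%, 0.808%, 0.790% and 0.747% of each library's counts. The 5 writers summed to 4127 CPM in core frontal, 3839 CPM in core occipital, 3954 CPM in penumbra and 4139 CPM in sham. Their ratios to sham were 0.997 (0.876 to 1.14) for core frontal, 0.928 (0.801 to 1.07) for core occipital and 0.955 (0.831 to 1.10) for penumbra, all with intervals that include 1. With TMM factors the core occipital ratio was 0.858, with an interval that leaves out 1. The 4 Polycomb genes summed to 3962 CPM in core frontal, 4236 CPM in core occipital, 3944 CPM in penumbra and 3332 CPM in sham, with ratios to sham of 1.19 (1.03 to 1.37), 1.27 (1.09 to 1.48) and 1.18 (1.02 to 1.37). Counting only circles with 10 or more counts, the penumbra ratio was 1.14, with an interval that includes 1. Most of the Polycomb sum is Cdyl. Without Cdyl the other 3 Polycomb genes summed to 387 CPM in core frontal, 433 CPM in core occipital, 457 CPM in penumbra and 544 CPM in sham, with all 3 ratios to sham below 1 and all intervals including 1. All ratios to sham share the 1 sham library and are not independent of each other.

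**Figure D1:**
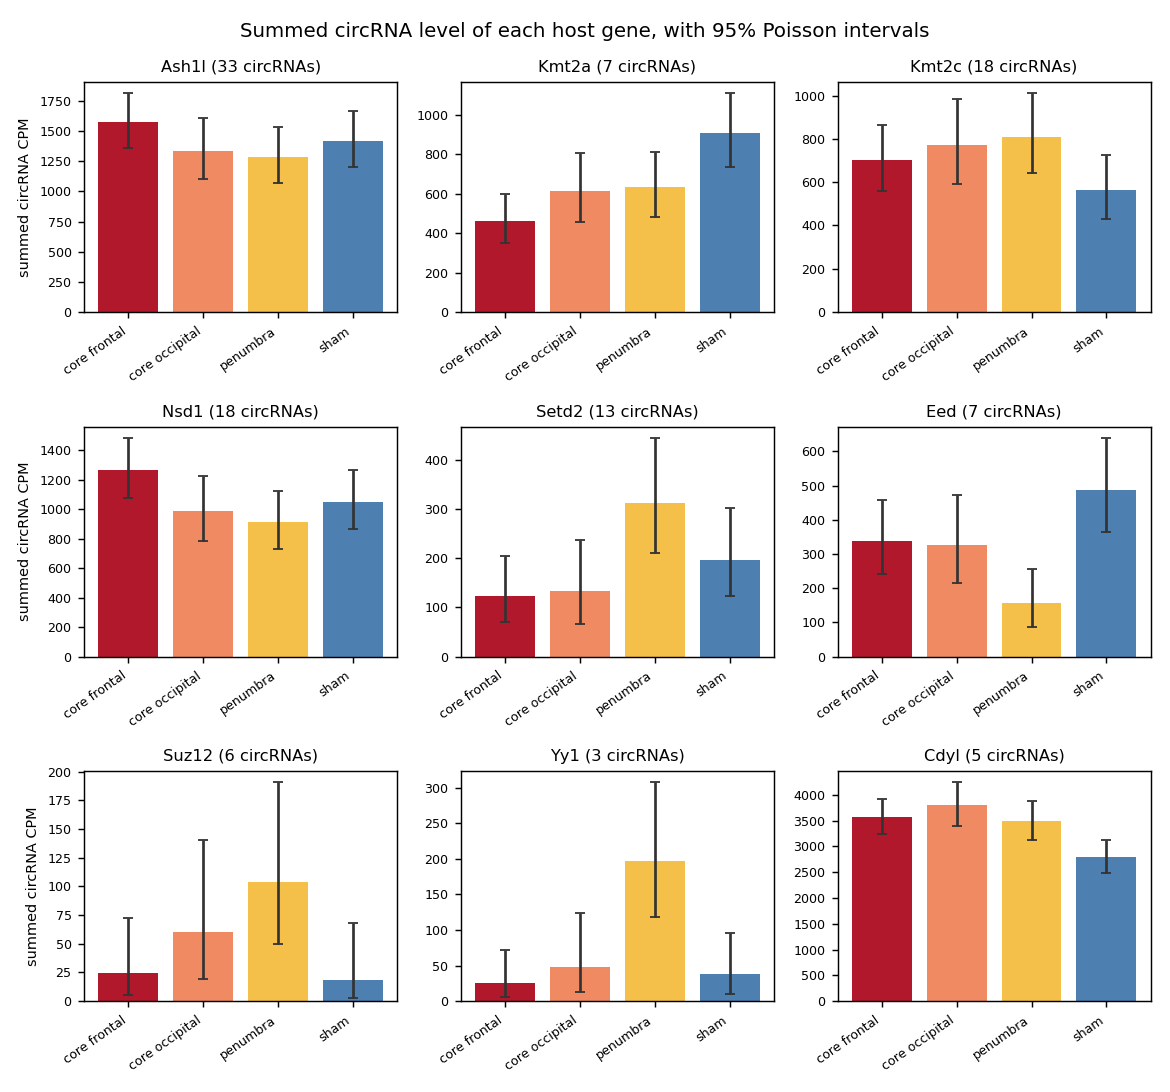
Summed circRNA level of each of the 9 genes in CPM (bars from 0, 1 panel a gene with its own scale) in core frontal, core occipital, penumbra and sham, with 95% exact Poisson intervals that cover counting error only. Kmt2a was lowest in core frontal and highest in sham, Eed was lowest in penumbra, and Yy1 and Suz12 were highest in penumbra.

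In core frontal against sham 3 of the 19 member circles tested were called, 1 higher and 2 lower, where 0.747% of all 4152 circRNAs tested were called, 0.289% higher and 0.458% lower. These were the Ash1l circle of exons 2 to 3, which rose, and the Kmt2a circle of exons 19 to 20 and the Eed circle of exons 2 to 3, which fell. Members were picked with this contrast known, so nothing is read from that share. An edgeR exact test with an assumed coefficient of variation of 0.2 between libraries called 0 of the 3, as did the same Fisher's test without the minimum of 10 counts. Over all circRNAs of this pair, edgeR called 0 of 4152, and Fisher's test without the minimum called 0 higher and 4 lower of 21388. The loss of these calls is therefore not particular to the members. No member was called in the other 5 pairs: 0 of 18 in core occipital against sham (0.467% of all circRNAs), 0 of 20 in penumbra against sham (0.0538%), 0 of 16 in penumbra against core frontal (0.934%), 0 of 17 in penumbra against core occipital (0.0606%) and 0 of 18 in core frontal against core occipital (0.344%). A looser rule asked only that a ratio's interval leave out 1. Against sham it was passed by 7 of 19 members in core frontal, 6 of 18 in core occipital and 7 of 20 in penumbra. The shares of all circRNAs tested were 12.5%, 11.2% and 9.39%. The same rule gave 4 of 16 members in penumbra against core frontal, beside 11.2% of all circRNAs. It gave 2 of 17 in penumbra against core occipital and 1 of 18 in core frontal against core occipital, beside 5.76% and 10.4%. Members were picked with these comparisons known, and some reached 10 counts only through the library where they were high. Nothing is therefore read from these shares. The median log2 ratio to sham of the members tested was -0.01 (core frontal), -0.23 (core occipital) and -0.25 (penumbra), beside 0.03, -0.06 and 0.01 over all circRNAs tested.

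**Figure D2:**
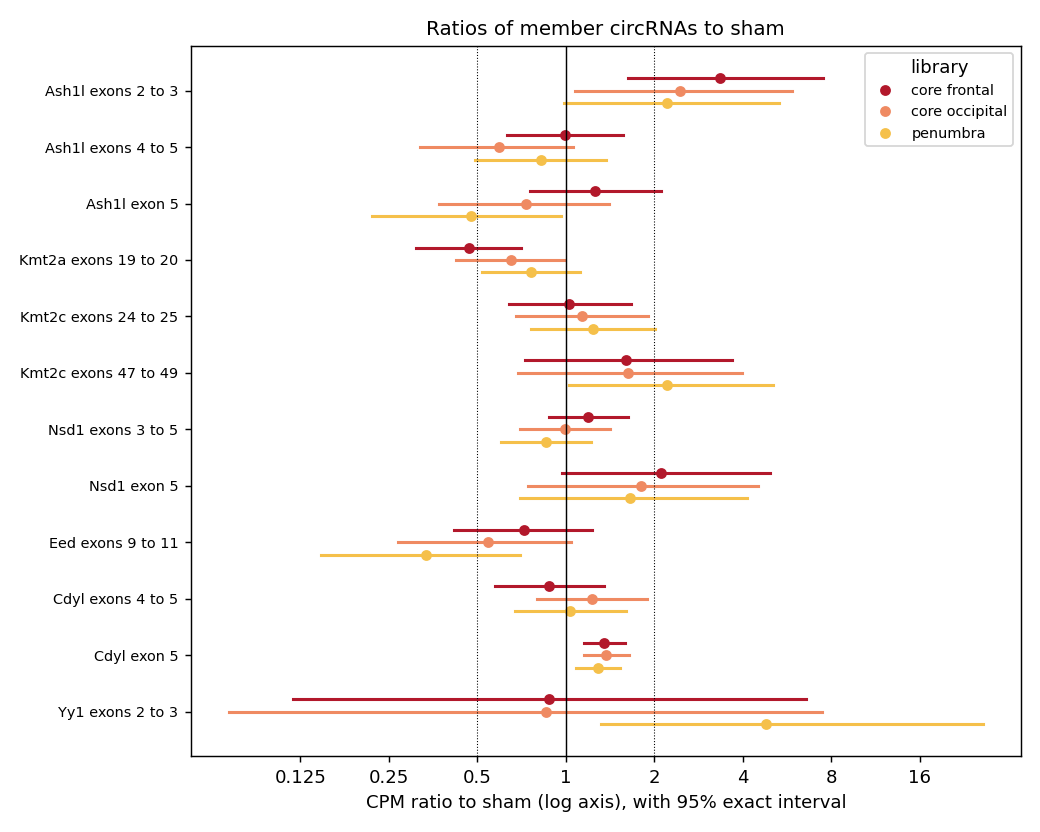
Ratio of CPM in core frontal, core occipital and penumbra to CPM in sham for 12 named member circles (log axis), with 95% exact intervals for counting error only; the solid line marks 1 and the dotted lines a 2-fold difference. The Ash1l circle of exons 2 to 3 lay above 1 at 3.34, 2.44 and 2.21, and the Kmt2a circle of exons 19 to 20 lay below 1 at 0.470, 0.650 and 0.763.

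Ash1l encodes a trithorax-group methyltransferase for lysine 36 of histone H3. It gave 33 of the 110 circles, the most of the 9 genes, and ranked 35 of 5295 host genes by number of circles. Its summed level was 1573 CPM in core frontal, 1336 CPM in core occipital, 1287 CPM in penumbra and 1417 CPM in sham, and the ratios to sham of 1.11 (0.892 to 1.38), 0.943 (0.731 to 1.21) and 0.908 (0.710 to 1.16) all had intervals that include 1. Single Ash1l circles differed more than their sum.

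The Ash1l circle of exons 2 to 3 had counts of 38 (core frontal), 19 (core occipital), 20 (penumbra) and 10 (sham), or 313, 229, 208 and 93.8 CPM. All 3 MCAO libraries were above sham, with core frontal highest. The ratio to sham was 3.34 (1.63 to 7.51) for core frontal, which was called, 2.44 (1.08 to 5.87) for core occipital and 2.21 (0.988 to 5.29) for penumbra. In the other direction, the circle of exons 2 to 5 had counts of 6 (core frontal), 4 (core occipital), 2 (penumbra) and 16 (sham), with sham highest. Its ratios to sham were 0.329 (0.105 to 0.886), 0.321 (0.0780 to 0.994) and 0.138 (0.0154 to 0.588), and none was called. Exon 2 closed on itself had counts of 2 (core frontal), 4 (core occipital), 6 (penumbra) and 13 (sham), and its ratio to sham in core frontal was 0.135 (0.0148 to 0.597). The circles of exons 2 to 5 and of exon 2 were singled out after their values were seen, since they share an acceptor with the called circle.

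In all, 7 Ash1l circles began at exon 2, with counts of 48 (core frontal), 32 (core occipital), 33 (penumbra) and 44 (sham). Their summed level was 395 CPM in core frontal, 385 CPM in core occipital, 343 CPM in penumbra and 413 CPM in sham, with penumbra the lowest and the others close together. The circle of exons 2 to 3 was 79.2% of these counts in core frontal (95% Clopper-Pearson interval 65.0 to 89.5), 59.4% in core occipital (40.6 to 76.3), 60.6% in penumbra (42.1 to 77.1) and 22.7% in sham (11.5 to 37.8). That of exons 2 to 5 was 12.5% in core frontal (4.73 to 25.2), 12.5% in core occipital (3.51 to 29.0), 6.06% in penumbra (0.743 to 20.2) and 36.4% in sham (22.4 to 52.2). Exon 2 alone was 4.17% in core frontal (0.509 to 14.3), 12.5% in core occipital (3.51 to 29.0), 18.2% in penumbra (6.98 to 35.5) and 29.5% in sham (16.8 to 45.2). In sham no single circle of this acceptor held most of its counts, whereas in each MCAO library the circle of exons 2 to 3 did. These shares rest on the same counts that brought Ash1l into the list, and carry no test.

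**Figure D3:**
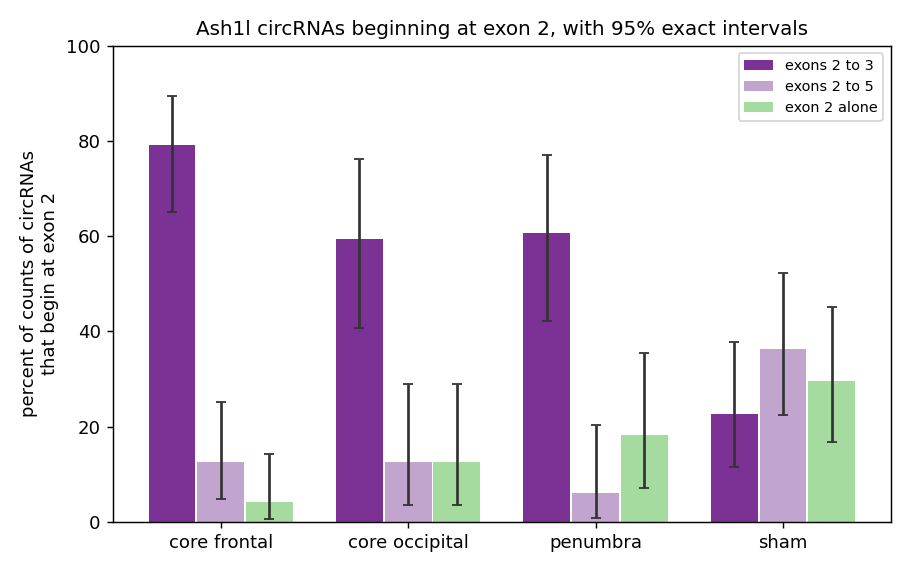
Share of the counts of all 7 Ash1l circles that begin at exon 2 (percent, bars from 0, with 95% exact intervals) held by exons 2 to 3, exons 2 to 5 and exon 2 alone in core frontal, core occipital, penumbra and sham. The circle of exons 2 to 3 held 79.2% in core frontal and 22.7% in sham, and the circle of exons 2 to 5 held 12.5% in core frontal and 36.4% in sham.

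The most abundant Ash1l circle, of exons 4 to 5, had counts of 44 (core frontal), 18 (core occipital), 29 (penumbra) and 39 (sham). Closed on itself, exon 5 had counts of 40 (core frontal), 16 (core occipital), 12 (penumbra) and 28 (sham), and penumbra was the lowest, at 0.378 (0.181 to 0.735) of core frontal and 0.474 (0.220 to 0.962) of sham. Summed over the 6 circles that end at exon 5, the level was 832 CPM in core frontal, 542 CPM in core occipital, 509 CPM in penumbra and 863 CPM in sham. Core occipital and penumbra were both below sham here, at 0.627 (0.429 to 0.905) and 0.589 (0.408 to 0.842), while core frontal was close to it. This sum was not set in advance, and it includes the circle of exons 2 to 5, singled out above after its values were seen. That circle held 6 of 101 counts in core frontal, 4 of 45 in core occipital, 2 of 49 in penumbra and 16 of 92 in sham.

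**Figure D4:**
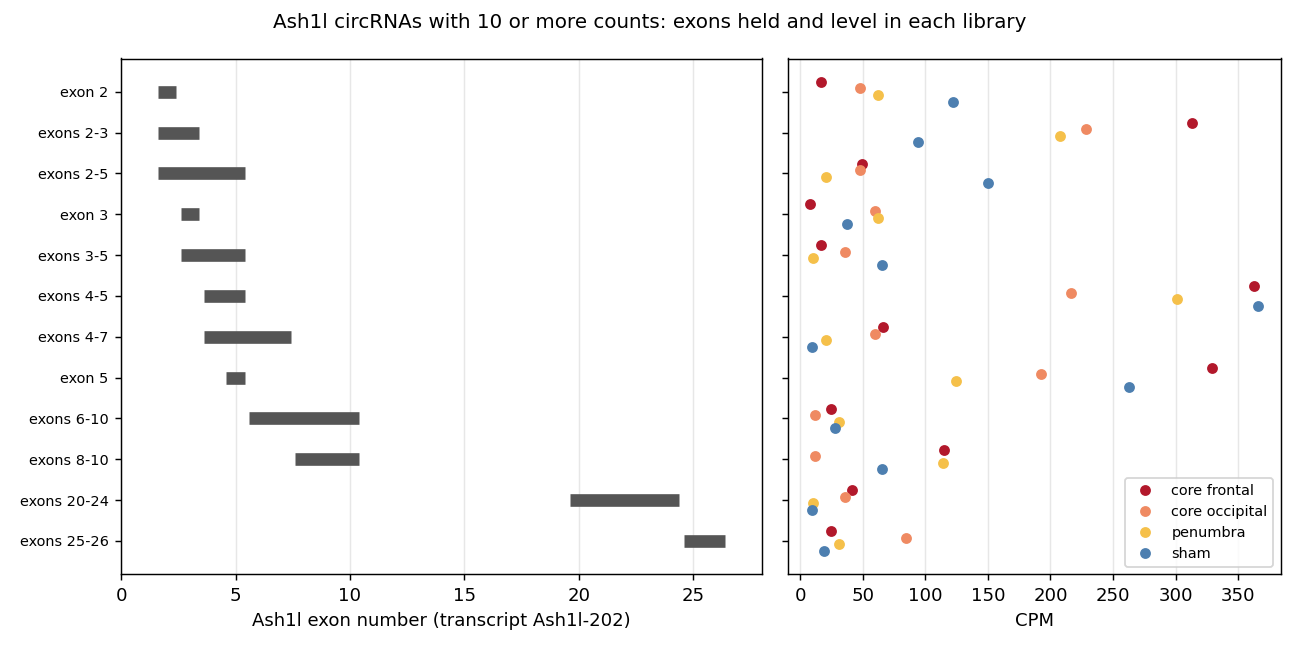
Ash1l circles with 10 or more counts and known exons, drawn by the exons they hold (left, exon number) and by their level in each library (right, CPM). Exons 2 to 3 lay at 313 CPM in core frontal and 93.8 CPM in sham, and exons 4 to 5 lay at 362 CPM in core frontal and 366 CPM in sham.

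Kmt2a, also known as MLL1, encodes a methyltransferase for lysine 4 of histone H3. Its 7 circles summed to counts of 56 (core frontal), 51 (core occipital), 61 (penumbra) and 97 (sham), or 461, 614, 633 and 910 CPM. All 3 MCAO libraries were below sham, at 0.507 (0.358 to 0.711), 0.674 (0.471 to 0.956) and 0.696 (0.496 to 0.968). By the interval rule 2 of the 7 member genes tested passed in core frontal against sham, beside 12.9% of 2599 host genes. Suz12 and Yy1 had too few counts in this pair. Kmt2a, which passed, was selected with this pair known, so nothing is read from that share. Exons 19 to 20 formed the main Kmt2a circle, with counts of 38 (core frontal), 36 (core occipital), 49 (penumbra) and 71 (sham), or 313, 433, 509 and 666 CPM. Core frontal was lowest and sham highest, with ratios to sham of 0.470 (0.308 to 0.706) for core frontal, which was called, 0.650 (0.423 to 0.984) for core occipital and 0.763 (0.519 to 1.11) for penumbra. The call lies just past the 2-fold limit, and the Nsd1 circle of exon 5, at 2.11 (0.971 to 4.94) in core frontal against sham, is a member past that limit that was not called. In penumbra against core frontal the ratio of the Kmt2a circle was 1.62 (1.04 to 2.55). A shorter form of this circle, also chosen after its values were seen, begins 3 bases further into exon 19 and had counts of 7 (core frontal), 7 (core occipital), 5 (penumbra) and 7 (sham). It did not show the order of the longer form, and its counts are too few to compare the 2 forms closely. Another circle, of exons 21 to 24 and chosen in the same way, had 3, 2, 6 and 13 counts in core frontal, core occipital, penumbra and sham, and its ratio to sham in core frontal was 0.203 (0.0370 to 0.737). Without the circle of exons 19 to 20, the other Kmt2a circles were at 0.608 (0.314 to 1.15) of sham in core frontal.

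Kmt2c, also known as MLL3, encodes a methyltransferase for lysine 4 of histone H3 that acts at enhancers. Its 18 circles summed to 700 CPM in core frontal, 770 CPM in core occipital, 810 CPM in penumbra and 563 CPM in sham, and sham was the lowest of the 4. The ratio to sham was 1.44 (1.01 to 2.05) in penumbra. In core frontal it was 1.24 (0.883 to 1.76) and in core occipital 1.37 (0.947 to 1.98), with intervals that include 1. Its main circle, of exons 24 to 25, had counts of 41 (core frontal), 31 (core occipital), 39 (penumbra) and 35 (sham). The circle of exons 47 to 49 (chr5:25288990-25290887) had counts of 20 (core frontal), 14 (core occipital), 22 (penumbra) and 11 (sham), with a ratio to sham of 2.21 (1.03 to 5.05) in penumbra, which was not called.

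Nsd1 encodes a methyltransferase for lysine 36 of histone H3, and its 18 circles summed to 1269 CPM in core frontal, 987 CPM in core occipital, 913 CPM in penumbra and 1051 CPM in sham. Penumbra was at 0.720 (0.548 to 0.942) of core frontal. Ratios to sham were 1.21 (0.940 to 1.55) in core frontal, 0.939 (0.697 to 1.26) in core occipital and 0.869 (0.650 to 1.16) in penumbra. The intervals of these ratios to sham all include 1. Exons 3 to 5 formed its main circle, which had counts of 103 (core frontal), 59 (core occipital), 59 (penumbra) and 76 (sham), and made up 66.9%, 72.0%, 67.0% and 67.9% of the gene's counts. Exon 5 closed on itself had counts of 24 (core frontal), 14 (core occipital), 15 (penumbra) and 10 (sham), or 15.6%, 17.1%, 17.0% and 8.93% of the gene's counts. The share of the larger circle was nearly level. That of exon 5 alone was lowest in sham, at 8.93% (4.36 to 15.8) on 10 counts. This interval overlaps those of core frontal (10.2 to 22.3), core occipital (9.66 to 27.0) and penumbra (9.87 to 26.6).

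Setd2 encodes the enzyme that places the third methyl group on lysine 36 of histone H3. Its 13 circles were all scarce, and the most abundant, of exons 9 to 10 (chr9:110567708-110569811), had counts of 3 (core frontal), 2 (core occipital), 1 (penumbra) and 4 (sham). Summed over the gene the counts were 15 (core frontal), 11 (core occipital), 30 (penumbra) and 21 (sham). Penumbra was highest, at 2.52 (1.31 to 5.04) of core frontal, 2.35 (1.15 to 5.20) of core occipital and 1.58 (0.875 to 2.90) of sham.

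Eed encodes the PRC2 subunit that binds methylated lysine 27 of histone H3. Its 7 circles summed to counts of 41 (core frontal), 27 (core occipital), 15 (penumbra) and 52 (sham), or 338, 325, 156 and 488 CPM. Penumbra was lowest, at 0.319 (0.167 to 0.575) of sham, 0.461 (0.237 to 0.851) of core frontal and 0.479 (0.237 to 0.933) of core occipital. In penumbra against sham 6 of the 9 member genes passed the interval rule, beside 9.90% of 2475 host genes, and in core occipital against sham 1 of 7 passed as higher and 1 of 7 as lower, beside 6.04% and 5.92%. Among the 6 were Suz12, with 10 counts in penumbra and 2 in sham, and Yy1, with 19 and 4. Both reached the minimum of 10 counts only through penumbra, where they were high, so nothing is read from that share. Members were picked with these comparisons known, so nothing is read from the core occipital shares either. Exons 9 to 11 formed the main Eed circle, which had counts of 27 (core frontal), 14 (core occipital), 10 (penumbra) and 33 (sham), and its penumbra level was 0.335 (0.147 to 0.696) of sham. Exons 2 to 3 formed a circle that had counts of 0 (core frontal), 0 (core occipital), 0 (penumbra) and 10 (sham), where it reached 93.8 CPM. Set against 3 counts, it was at least 3.80-fold lower in core frontal, at least 2.60-fold lower in core occipital and at least 3.01-fold lower in penumbra than in sham. Only the core frontal difference was called, and with 10 counts over both libraries this circle had the fewest that the test admits. All 10 were in sham, so it entered the test only through the library where it was high and could not have entered without differing.

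Suz12 encodes another core subunit of PRC2, and its 6 circles together had counts of 3 (core frontal), 5 (core occipital), 10 (penumbra) and 2 (sham). The most abundant, of exons 8 to 13 (chr11:80015143-80025954), had counts of 0 (core frontal), 2 (core occipital), 3 (penumbra) and 1 (sham). Penumbra was at 4.20 (1.08 to 23.7) of core frontal, 1.72 (0.537 to 6.43) of core occipital and 5.53 (1.18 to 51.9) of sham. The interval against core occipital includes 1, and all are so wide that the size of the difference is hardly bounded. Suz12 reached the minimum of 10 counts in these pairs only through its 10 penumbra counts.

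Yy1 encodes a zinc finger protein that binds DNA and is the mammalian relative of the fly Polycomb-group protein Pleiohomeotic. Its 3 circles together had counts of 3 (core frontal), 4 (core occipital), 19 (penumbra) and 4 (sham). Penumbra was highest, at 7.98 (2.35 to 42.1) of core frontal, 4.10 (1.36 to 16.6) of core occipital and 5.25 (1.75 to 21.2) of sham. Most of these counts were of exons 2 to 3, which had counts of 3 (core frontal), 2 (core occipital), 13 (penumbra) and 3 (sham). Its level in penumbra was 4.79 (1.32 to 26.2) of sham, 5.46 (1.5 to 29.9) of core frontal and 5.61 (1.27 to 51.2) of core occipital. None of these differences was called. Of the 9 genes, Kmt2c, Setd2, Suz12 and Yy1 had their highest summed level in penumbra, and Ash1l, Nsd1 and Eed their lowest. In penumbra against core frontal 5 of the 9 member genes passed the interval rule, beside 12.6% of host genes, and in penumbra against core occipital 3 of 9 did, beside 6.78%. In core frontal against core occipital 0 of 7 passed, beside 12.5%. Suz12 and Yy1 reached the minimum of 10 counts in the penumbra pairs only through penumbra, where they were high. In core frontal against core occipital they had too few counts to enter. These shares therefore depend in part on the count minimum, and nothing is read from them.

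Cdyl encodes a chromodomain protein that acts as a corepressor and works with PRC2. Its 5 circles held counts of 434 (core frontal), 316 (core occipital), 336 (penumbra) and 297 (sham), and it ranked 36 of 5295 host genes by summed counts. The level was 3575 CPM in core frontal, 3803 CPM in core occipital, 3487 CPM in penumbra and 2787 CPM in sham, with all 3 MCAO libraries above sham at 1.28 (1.10 to 1.49), 1.36 (1.16 to 1.60) and 1.25 (1.07 to 1.47). Exon 5 closed on itself had counts of 384 (core frontal), 267 (core occipital), 290 (penumbra) and 249 (sham), and ranked 17 of all 23980 circRNAs. Its ratios to sham were 1.35 (1.15 to 1.59), 1.38 (1.15 to 1.64) and 1.29 (1.08 to 1.53), below the 2-fold limit of a call. With the trend of ratios over GC content removed they were 1.42 (core frontal), 1.16 (core occipital) and 1.09 (penumbra), so the differences in core occipital and penumbra were mostly lost. Its longer neighbour, of exons 4 to 5, had counts of 47 (core frontal), 45 (core occipital), 44 (penumbra) and 47 (sham). Without exon 5 alone, the ratios of the other Cdyl circles to sham were 0.914 (0.603 to 1.39), 1.31 (0.861 to 1.99) and 1.06 (0.692 to 1.62), so the higher sum in core frontal and penumbra lay in the circle of exon 5.

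**Figure D5:**
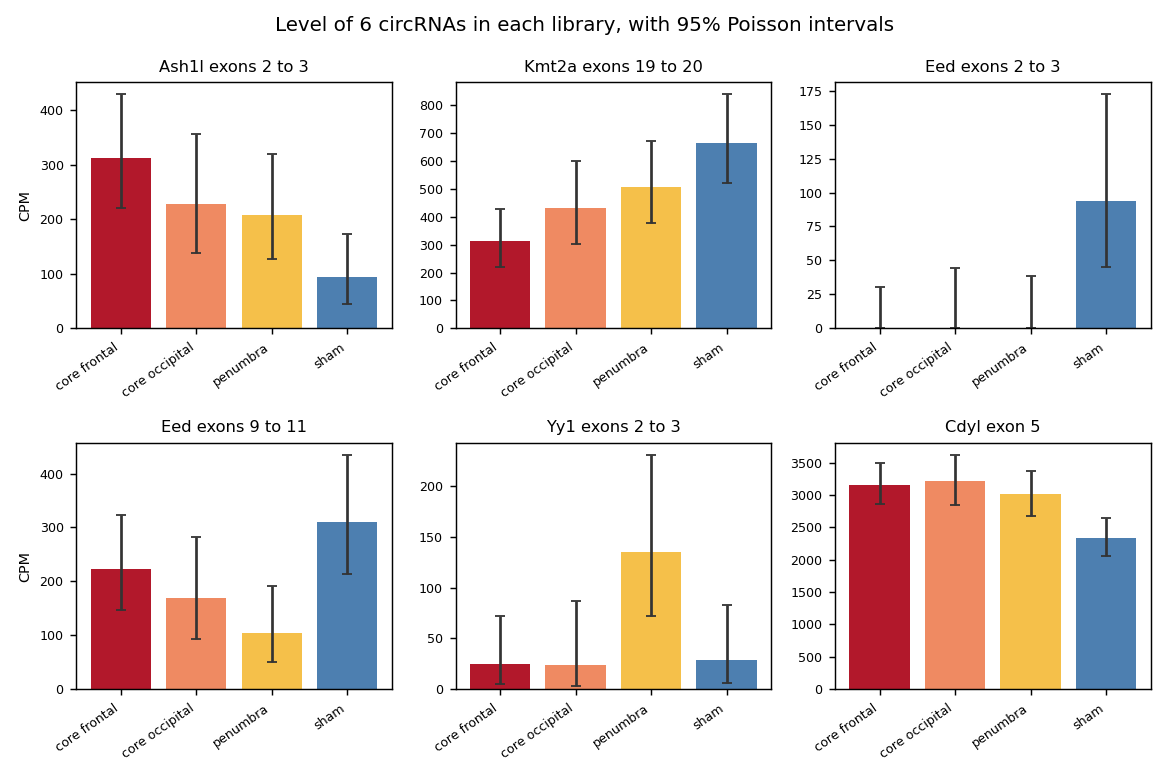
Level of 6 member circles in CPM (bars from 0, 1 panel a circle with its own scale) in core frontal, core occipital, penumbra and sham, with 95% exact Poisson intervals for counting error only. Of the 6, the Cdyl circle of exon 5 was the highest at 2337 to 3213 CPM, and the Eed circle of exons 2 to 3 was seen in sham only.

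Of the 110 member circles 99 had both ends on exon boundaries of 1 transcript, and these were compared in build with all 19588 circRNAs of that kind. Their median spliced length was 772 bases against 541, with a median of 4 exons in both. Among circles with 10 or more counts the lengths were closer, at 541.5 bases for 28 members against 500.5 for all 5948, and the median exon number was 2 for members against 4 for all. Circles of the writers were longer, at a median of 858 bases (81 circles), than those of the Polycomb genes, at 495 bases (18 circles). Of the members 15.2% began at exon 2, against 23.9% of all, and 89.9% held coding sequence alone, against 82.3%. Some genes placed a very long exon in their circles and others did not. Ash1l exon 3, of 4558 bases, was in 8 of 29 circles and 161 of 549 counts, and Nsd1 exon 5, of 2560 bases, was in 7 of 18 circles and 383 of 436 counts. Kmt2a exon 27, of 4237 bases, was in 0 of 6 circles. Cdyl exon 5, of 667 bases, was in 1376 of 1379 counts, mostly alone.

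The called Ash1l circle of exons 2 to 3 is 5075 bases long and holds the start codon of its gene, 100 bases of the 5′ untranslated region and codons 1 to 1659 of 2958. The Kmt2a circle of exons 19 to 20 is 301 bases long and covers codons 1784 to 1884 of 3963. The Cdyl circle of exon 5 covers codons 58 to 280 of 593. The Eed circle of exons 9 to 11, of 339 bases, and the Kmt2c circle of exons 24 to 25, of 249 bases, are divisible by 3 and hold 0 stop codons in the host's frame. Both lie within coding sequence, so only a codon across the junction could have been a stop. Other circles of this kind, such as Setd2 exon 12, also held 0, so this does not set the 2 circles apart. No translation of any circle was measured.

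The other genes of histone methylation were taken as 6 lists of 84 genes, of which 48 had at least 1 circle, 229 in all. None of their circles was called in any of the 6 pairs, with 33 to 43 tested in each. The looser interval rule was passed by 3 of 43 in core frontal against sham, 4 of 37 in core occipital against sham and 4 of 37 in penumbra against sham, beside the shares of 12.5%, 11.2% and 9.39% over all circRNAs. It was passed by 7 of 35 in penumbra against core frontal (3 higher, 4 lower), 4 of 33 in penumbra against core occipital and 4 of 38 in core frontal against core occipital, beside 11.2%, 5.76% and 10.4%. Among other PRC2 genes 5 of 9 had circles, the most abundant being exons 2 to 15 of Ezh2, the methyltransferase of PRC2, with counts of 13 (core frontal), 13 (core occipital), 23 (penumbra) and 17 (sham). Among genes of the sister complex PRC1 9 of 24 had circles, led by Scmh1 exons 6 to 9 with counts of 21 (core frontal), 18 (core occipital), 14 (penumbra) and 26 (sham). Among other writers of active marks 7 of 12 had circles, led by exons 3 to 4 of Nsd2, a relative of Nsd1, with counts of 119 (core frontal), 105 (core occipital), 124 (penumbra) and 150 (sham). Partners of the lysine 4 and lysine 36 writers had circles in 6 of 11 genes, led by exons 2 to 4 of Morf4l1, a chromodomain protein, with counts of 27 (core frontal), 15 (core occipital), 13 (penumbra) and 8 (sham). Writers of repressive marks had circles in 5 of 9 genes, led by Kmt5b exons 5 to 12 with counts of 13 (core frontal), 9 (core occipital), 20 (penumbra) and 14 (sham). Demethylases had circles in 16 of 19 genes, led by Kdm3a exons 12 to 17 with counts of 35 (core frontal), 34 (core occipital), 47 (penumbra) and 31 (sham).

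For the called circles the most alike patterns were sought among 1402 circRNAs with 50 or more counts, by the Euclidean distance between their 3 log2 ratios to sham. Among those near Ash1l exons 2 to 3 were Morf4l1 exons 2 to 4 (distance 0.346) and Anks1b exons 3 to 8 (0.410), with counts of 41 (core frontal), 27 (core occipital), 25 (penumbra) and 14 (sham). Nearest to Kmt2a exons 19 to 20 were Fancl exons 2 to 7 (0.0520), with counts of 33 (core frontal), 31 (core occipital), 42 (penumbra) and 60 (sham), Myrip exons 10 to 11 (0.120), with 65, 66, 80 and 123, and a Zfp536 circle (0.167), with 12, 10, 14 and 20. The Eed circle of exons 2 to 3 has no finite ratio to sham and was left out of this search.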

How the data were processed

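The values are whole-number counts per circRNA, as the authors deposited them, with no normalization. TopHat2 2.0.10, Bowtie and the build mm9 are named per the submitters' processing notes, but 89.1% of starts and 89.7% of ends lie on exon boundaries of GENCODE M21 (GRCm38), which was used. The sources used here name no circRNA caller or annotation, and the labels name 2 library kits. The table holds circRNAs with at least 2 counts over the 4 libraries. A second deposited table of FPKM was not used. One circRNA inside Kmt2a with neither end on a boundary was left out.

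Members and gene lists were chosen with earlier results of these data known. CPM used each library's circRNA total. Circles with 10 or more counts over 2 libraries were tested by Fisher's exact test (scipy 1.17.1, statsmodels 0.14.6, pandas 2.3.3, Python 3.11.15), tested first on simulated data. Ratios have 95% exact conditional intervals. A circle was named if it was its gene's most abundant, had 40 or more counts, was called, or had an interval beyond 2-fold; others are marked in the text. Of the nearest patterns, 1 circRNA is not reported here. Alternatives used TMM and an exact test from edgeR 4.0.16 and size factors from DESeq2 1.42.0 (R 4.3.3), a minimum of 30 counts or none, a GC trend removed, and circles with both ends on boundaries. Figures used matplotlib 3.10.9.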

Additional observations from a re-analysis of the deposited data

How the results depend on the processing

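Member circles called in core frontal against sham numbered 3. That count was 3 with TMM factors and with circles of both ends on boundaries only, 2 with DESeq2 size factors, 2 with a minimum of 30 counts and 2 with the GC trend removed; the Eed circle of exons 2 to 3 was the one lost. It was 0 without a count minimum and 0 with edgeR's exact test where libraries were taken to vary by a coefficient of 0.2. Over all circRNAs tested, the calls higher and lower were 12 and 19 in the main run and 12 and 23 with TMM factors. With DESeq2 size factors they were 11 and 16, and with the GC trend removed 12 and 15. A minimum of 30 counts gave 12 and 21 of 1332 tested. Without a minimum they were 0 and 4 of 21388, and with edgeR's exact test 0 and 0 of 4152. The sum of the Polycomb genes without its most abundant circle, Cdyl exon 5, was at 0.803 (core frontal), 1.03 (core occipital) and 0.939 (penumbra) of sham, against 1.19, 1.27 and 1.18 with it. In the same setting it was 1.17 in penumbra against core frontal and 0.781 in core frontal against core occipital, against 0.995 and 0.935 with it. With the GC trend removed the Cdyl exon 5 circle was at 1.42 (core frontal), 1.16 (core occipital) and 1.09 (penumbra) of sham, and at 0.757 in penumbra against core frontal and 1.23 in core frontal against core occipital. No called value changed direction in any alternative run. No paired analysis was possible because each group has 1 library, and for the same reason no library could be left out. Most member circles have too few counts for a difference under several-fold to be detectable at this depth.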

Other observations

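Of the Ash1l circles with 1 end on an exon boundary, 3 begin upstream of exon 2 at a position that is no exon start of the gene in GENCODE M21 (chromosome 3, 88964674, GRCm38). They end at 88966328, 88985790 and 89007877, the ends of exon 2, exon 3 and exon 5, which are also the donors of the circles that begin at exon 2. The circle that ends at exon 2 had counts of 0 (core frontal), 2 (core occipital), 2 (penumbra) and 0 (sham), as did the circle that ends at exon 3. The circle that ends at exon 5 had counts of 1 (core frontal), 0 (core occipital), 3 (penumbra) and 0 (sham). None was seen in sham, where the Poisson interval of 0 counts reaches 34.6 CPM. Their highest level elsewhere, 31.1 CPM in penumbra for the circle that ends at exon 5, lies below this. Their absence from sham therefore shows no difference. These circles were singled out after their values were seen.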
